A study of Drosophila melanogaster with 2 samples.

Results

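The genes described here are 9 core regulators of the cell division cycle in Drosophila melanogaster, E2f1, Rbf, CycD, CycE, dap, CycA, CycB, stg and fzr, out of 13945 protein-coding genes on the main chromosome arms. They were chosen by name, and each was taken with 5 kb on either side. Chromatin of whole pupae aged 1 day was sonicated, precipitated with an anti-GFP antibody and sequenced. The antibody label reads CG12605, while the description says anti-GFP, and the description was followed. The flies, of strain CG12605-GFP, are transgenic and make a CG12605-eGFP fusion, CG12605 joined to enhanced green fluorescent protein. The 2 libraries are biological replicates of that single group and come from 1 donor line, with sex not recorded, so there is no second condition and no test between groups. Whole animals mix all tissues, so a peak cannot be given to a cell type. The labels describe an insertion that targets CG12605 and do not say which promoter drives the fusion or whether an untagged copy remains.

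The regulators sit at successive steps of the cycle. E2f1 switches on the genes needed for DNA replication, and Rbf, a retinoblastoma family protein, holds it in check. CycD with its kinase relieves that hold, CycE with Cdk2 starts S phase, and dap, an inhibitor of the p21 and p27 family, stops CycE with Cdk2 so that cells can leave the cycle. CycA and CycB work with Cdk1 in mitosis, stg is the Cdc25 phosphatase that activates Cdk1, and fzr directs the anaphase-promoting complex to destroy mitotic cyclins. In the young pupa some tissues finish their divisions and differentiate, abdominal precursor cells divide, and many larval cells have become polyploid. CG12605 belongs to the Snail and Scratch family of zinc finger proteins, which read short sequences called E-boxes and are mostly known as repressors.

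CG12605-eGFP peaks lay at 6 of the 9 regulators and were spread very unevenly among them. The authors' conservative list, which keeps peaks whose ranks repeat between the replicates, held 22 summits in the 9 regions, of 6776 on the main arms. E2f1 had 11 of them, stg 5, CycB 2, dap 2, CycA 1 and fzr 1, while Rbf, CycD and CycE had 0. Among all protein-coding genes 49.8% had a conservative summit in the gene or within 5 kb, so 6 of 9 is not far from the background. E2f1, stg and dap, or 3 of the 9, had one no more than 1000 bp from a start site, where the background was 23.1%. At CycA, CycB and fzr the conservative summits lay beyond the end of the gene.

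The peaks of the replicates taken alone gave the same genes in part. The thresholded list of replicate 2 had 20 summits in the 9 regions and reached the same 6 genes, CycA by a summit other than its conservative one (signal 42.9), where 44.5% of protein-coding genes had one. The list of replicate 1 had 10 summits and reached 4 genes (E2f1, CycB, stg and fzr), against a background of 38.9%. Without replicate 1 the 3 genes with a summit near a start site stayed at 3, and without replicate 2 only 1 was left. Read depth is unknown, since the files hold peaks and not counts, and the list of replicate 1 is the shorter one, at 4022 peaks against 5394 for replicate 2.

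The signal of a peak is the authors' own value, and the sources used here do not give its scale. In 5991 of the 6776 conservative peaks the ranked list of each replicate had a summit within 100 bp. Over these the signal is close to the sum of the 2 replicate signals (median ratio 0.999, and 0.964 in the 9 regions). It is thus generally larger than either replicate's value. In the 9 regions the conservative signals ran between 42.8 and 332, with a median of 74.7, beside a median of 85.6 over the whole list. Of the 22 peaks, 10 reached that median and 4 lay above the upper quartile of the list, 129. The highest peaks lay beside fzr (332) and CycB (273), while in the E2f1 region, which had the most peaks, no conservative peak exceeded 132.7.

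**Figure D1:**
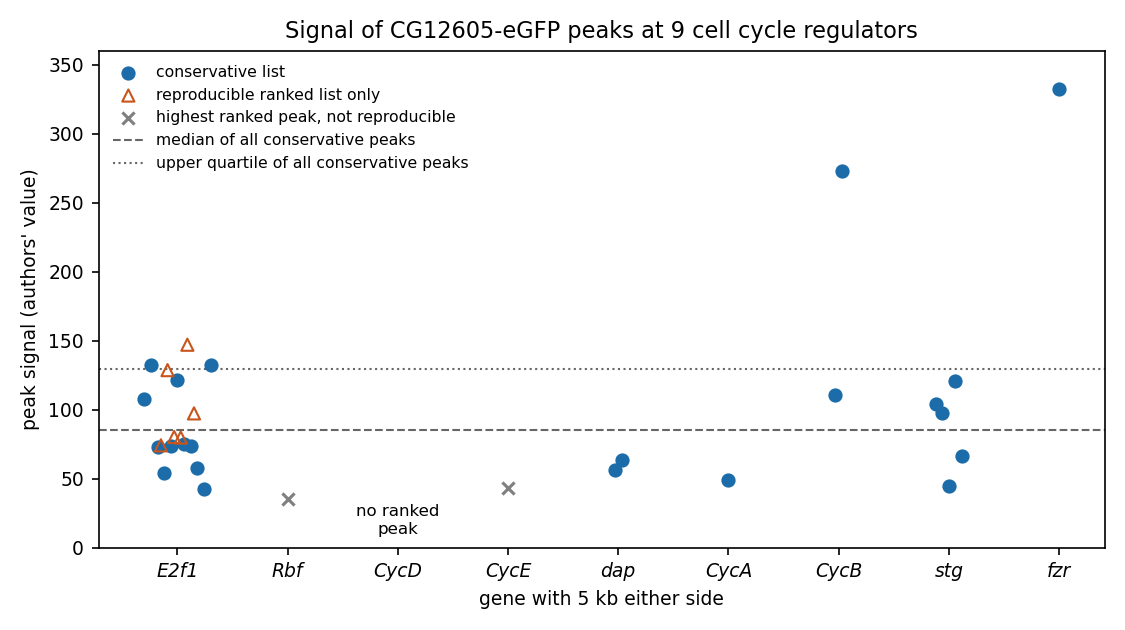
Each point is the summit of a peak in one of the 9 genes or the 5 kb on either side, with the authors' peak signal on the vertical axis. Filled circles are in the conservative list, open triangles reach the same reproducibility but are only in the ranked list, and crosses give the highest ranked peak at genes without a reproducible one. fzr at 332 and CycB at 273 stand above the other genes, and E2f1 has the most points.

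E2f1, the activator of S phase genes, had the most peaks. The gene (FBgn0011766) runs on 3R between 21620304 and 21660871 on the minus strand, spans 40568 bp and has 5 annotated start sites. Its region of 50.6 kb held 11 conservative summits, a number reached by 61 protein-coding genes (0.437%). Per length that is 2.18 summits per 10 kb, a density reached by 6.85% of protein-coding genes, against 0.506 per 10 kb over the main arms. The gene itself held 9 of the 11, of which 8 were in introns and 1 in a 5′ UTR exon.

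The highest conservative peak of E2f1 had a signal of 132.7, with 48.3 in replicate 1 and 82.7 in replicate 2. Its summit, at 21662646, lies 1775 bp upstream of the 5′-most start site and inside Archease, the divergent neighbour, 326 bp from the start of that gene, so it cannot be given to E2f1 alone. The next, at 132.5, lies in an intron at 21627934, 4759 bp downstream of the nearest E2f1 start site, and had 69.6 in replicate 1 and 74.2 in replicate 2. A summit at 21650233 had 121 (54.2 and 71.4 in replicates 1 and 2) and lies in the first intron of the transcripts that begin at the 5′-most start sites. The summit in the 5′ UTR exon, at 21626691, had 107, and both replicates gave it nearly the same signal, 52.1 in replicate 1 and 52.6 in replicate 2. The other 7 ran between 42.8 and 75.5, all below the median of the whole list. One of them, at 21656741, differed most between the replicates, with 21.1 in replicate 1 and 47.1 in replicate 2. The lowest of them, 42.8, was the one nearest to a start site: it lay 14 bp upstream of the 5′-most one, with 22.0 in replicate 1 and 31.3 in replicate 2.

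E2f1 also held all 6 of the summits in the 9 regions that reached the reproducibility limit but are missing from the conservative list. The ranked list compares the replicates and carries for each peak the −log10 of its irreproducible discovery rate (IDR), and a value of 2 or more, an IDR of 0.01, was the limit used. With it the E2f1 region had 17 summits and the 9 regions 28, while the other 8 genes gained none. Over the whole genome 180 of 6956 such peaks (2.59%) are not in the conservative list. They touch the region of 188 protein-coding genes (1.35%), of which 8 have 6 or more. The counts of genes with a summit moved little: 6 of 9 in the region, where 50.3% of all protein-coding genes had one, and 3 of 9 near a start site, where 23.7% did.

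The E2f1 peak with the highest signal is one of these 6, which the conservative list leaves out. Its summit, at 21633078, lies 5 bp upstream of the start site at 21633073, used by 2 transcripts, and within the antisense RNA gene asRNA:CR46055. The signal was 147, higher than 80.1% of conservative peaks, with 53.2 in replicate 1 and 93.1 in replicate 2. A summit at 21633722, 649 bp upstream of the same start site, had 97.4, with 45.6 in replicate 1 and 53.9 in replicate 2. One at 21630635, in an intron, had 79.9, with 36.3 in replicate 1 and 36.9 in replicate 2. The other 3 lie downstream of E2f1 at InR, the insulin receptor gene. The highest of these, at 21618470 inside InR, had 129 and nearly equal replicates, 61.3 in replicate 1 and 61.4 in replicate 2. At 21619338, 17 bp upstream of the InR start site, the signal was 80.3, with 36.3 in replicate 1 and 49.6 in replicate 2. At 21616392 it was 74.2, with 51.8 in replicate 2 and no ranked summit of replicate 1 within 100 bp. Slightly farther off, but inside the same peak, replicate 1 had a ranked summit of 25.4. None of the 6 was in the thresholded list of either replicate. That of replicate 2 did hold E2f1 summits with signals between 31.3 and 82.7, below the 93.1 at 21633078. Why the thresholded lists leave these 6 peaks out was not tested, so they are kept apart from the conservative ones. The 6 had −log10 IDR values between 2.55 (at 21616392) and 4.49 (at 21633078). The conservative summits of the E2f1 region had values between 2.01 (at 21656741) and 4.64 (at 21627934). The conservative list thus placed a peak within 1000 bp of the 5′-most E2f1 start sites only, and the ranked list also at the internal ones at 21632693 and 21633073. Just inside the limit stood an E2f1 summit at 21656741 (−log10 IDR 2.01, signal 74.0), and just outside it stood one of fzr at 4669440 (1.93, signal 50.2).

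**Figure D2:**
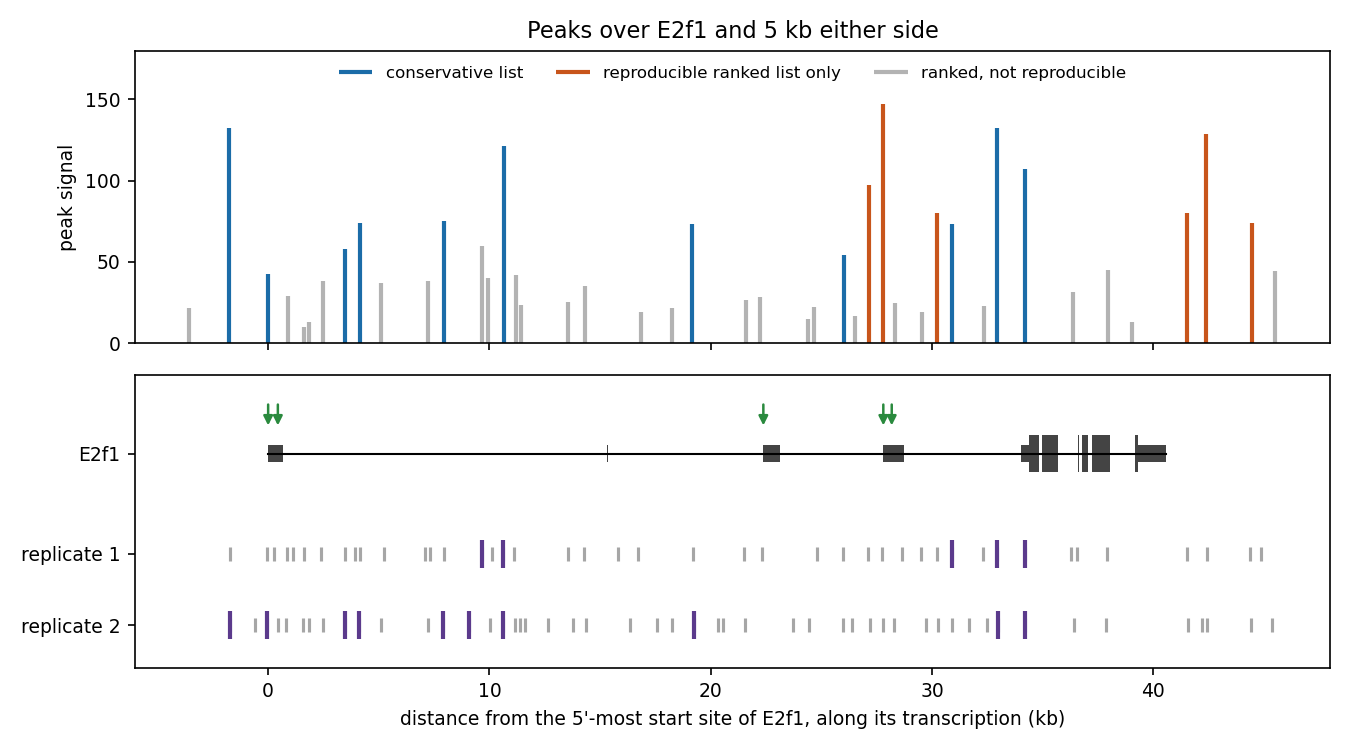
The upper panel gives peak signal along E2f1 with 5 kb either side, by distance from its 5′-most start site in the direction of transcription. The lower panel shows the gene (tall boxes coding, low boxes untranslated exons, arrows start sites) and the summits of each replicate's lists, thin marks ranked and thick marks thresholded. Conservative peaks are spread over the gene. The 6 peaks that are only in the ranked list fall in 2 clusters, around the internal start sites (up to 2058 bp away) and past the end of the gene.

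These E2f1 summits are shown because the first is the highest of E2f1 in the conservative list and the second lies at the internal promoter. The second is only in the ranked list. Each is the summit with 50 bp on either side on the plus strand of the Release 6 assembly (dm6), with E2f1 on the opposite strand. Capitals mark matches to 17 short sequences searched on both strands. At chr3R:21662596-21662696 the match is TATAAA, here as its reverse complement. At chr3R:21633028-21633128 it is TCAGT, part of the initiator, between 4 and 8 bp downstream of the annotated start site.
E2f1 upstream: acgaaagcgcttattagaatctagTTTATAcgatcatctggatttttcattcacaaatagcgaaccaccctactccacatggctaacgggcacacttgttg
E2f1 internal promoter: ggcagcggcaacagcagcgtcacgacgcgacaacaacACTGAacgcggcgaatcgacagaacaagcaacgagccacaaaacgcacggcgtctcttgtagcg

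Rbf, CycD and CycE, which act with E2f1 around the start of S phase, had no conservative or reproducible peak, and none in the thresholded list of either replicate. At Rbf (FBgn0015799, X, 797090 to 801479, minus strand) the ranked list of both replicates held 11 summits, a number reached by 16.0% of protein-coding genes. The highest, 35.1, lay 151 bp past the end of the gene, with 31.9 in replicate 2 and 9.48 in replicate 1. The nearest to the Rbf start site lay 144 bp away with 30.5. At CycE (FBgn0010382, 2L, 15727581 to 15748150, minus strand) the 6 ranked summits lay between 1.13 and 4.32 kb downstream of the 5′-most start site. An internal start site at 15746610, used by 3 transcripts, had a ranked summit 239 bp away with 20.1. The highest of the 6, at 15747020, lay 410 bp upstream of that internal site. It had 43.4, with 23.8 in replicate 1 and 17.5 in replicate 2, and its −log10 IDR was 1.21. The nearest conservative summit was 13920 bp from CycE and 21752 bp from Rbf.

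CycD, the G1 cyclin, was the emptiest of the 9. Its region on X (FBgn0010315, 15906822 to 15909676, minus strand) held no summit in the ranked list that compares the replicates or in the ranked list of either replicate. Of all protein-coding genes 14.8% had no summit in the first of these. The nearest, 19978 bp from the gene, was a conservative peak of 388 whose nearest start site is that of tay.

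The inhibitor dap had modest peaks at its promoter and in an intron. The gene (FBgn0010316, 2R, 9712321 to 9716256, plus strand) has 1 start site. The first summit, at 9712254, lay 67 bp upstream of it with a signal of 56.1, 30.6 in replicate 1 and 29.96 in replicate 2. The second, at 9714333, lay in an intron 2012 bp downstream with 63.6. It had 42.3 in replicate 2, and no ranked summit of replicate 1 lay within 100 bp of it or elsewhere in the peak. Both were in the thresholded list of replicate 2 and neither in that of replicate 1, so dap has 0 thresholded summits without replicate 2. The ranked list of replicate 1 held 4 summits in the dap region, among them the one at the promoter.

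CycB, a mitotic cyclin, had the second highest peak of the 9 regions, past its 3′ end. The gene (FBgn0000405, 2R, 22803521 to 22806948, minus strand) has 3 start sites, and the nearest conservative summit to any of them lay 3334 bp away. That summit, at 22802969, lies 552 bp beyond the end of the gene with a signal of 273, higher than 93.7% of the list. The replicates had 119 (replicate 1) and 161 (replicate 2). It lies in no other annotated gene, and the CycB start site is the nearest of any gene. A further summit at 22798979, with 111 (53.4 in replicate 1 and 47.7 in replicate 2), lay 120 bp upstream of the start site of blw, which encodes the alpha subunit of the mitochondrial ATP synthase. Both peaks are in the thresholded lists of both replicates.

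**Figure D3:**
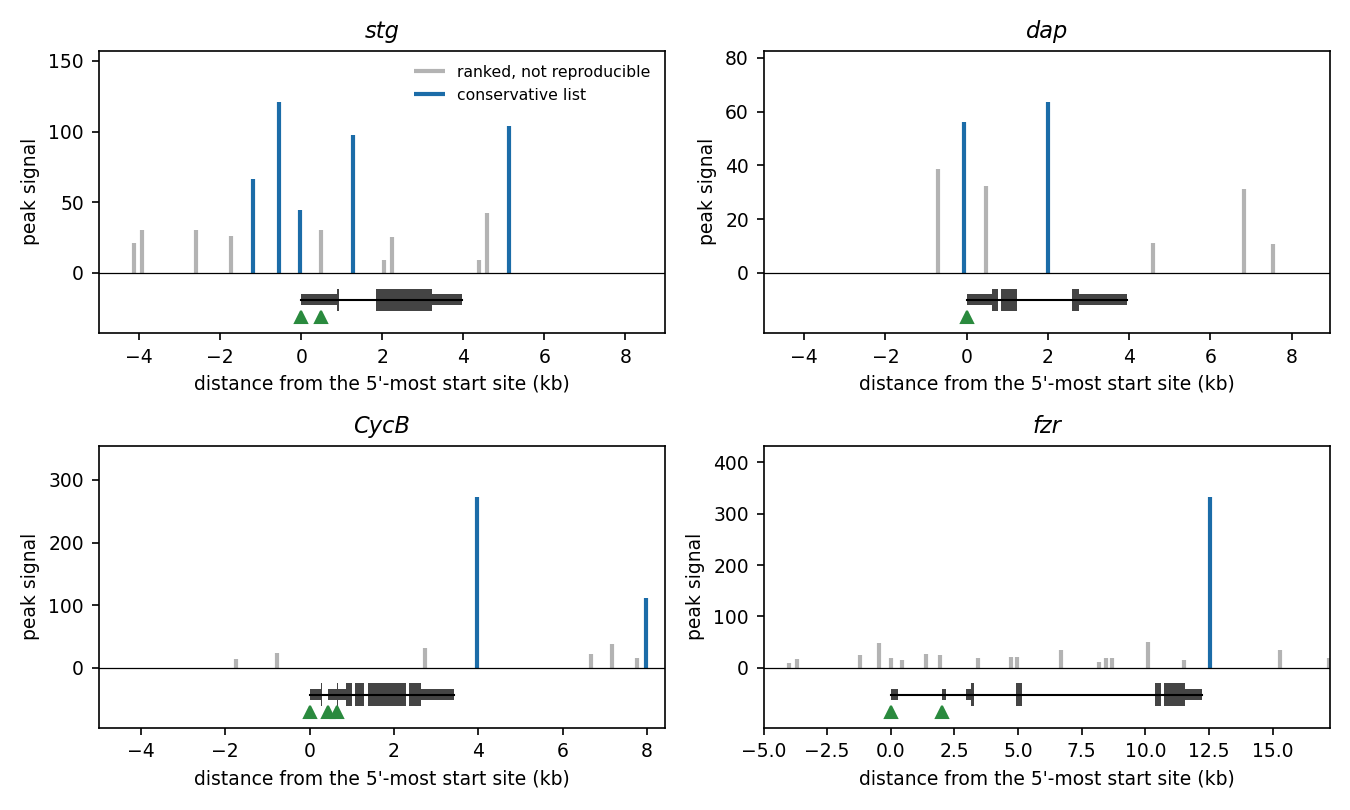
Peak signal at stg, dap, CycB and fzr with 5 kb either side, by distance from the 5′-most start site in kb in the direction of transcription. Blue lines are conservative peaks and grey lines ranked peaks below the limit, and under each axis are the exons (tall boxes coding) and start sites (triangles). At stg 3 of the 5 conservative peaks and at dap 1 of the 2 lie within 1000 bp of a start site, and those of CycB and fzr lie past the 3′ end, as does 1 of stg.

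CycA, the other mitotic cyclin, had a single conservative summit, at the edge of its region. The gene (FBgn0000404, 3L, 11826719 to 11833578, minus strand) had none in its body or near its start site, and in the ranked list that compares the replicates the nearest summit to that site was 9789 bp away. The conservative summit at 11822051 lay 4668 bp past the end of CycA and inside both CG11597 and CG5946, 154 bp from the CG11597 start site, which is the nearest, with a signal of 49.2 (25.6 in replicate 1 and 27.9 in replicate 2). It is higher than 9.42% of conservative peaks and in neither replicate's thresholded list. The ranked list held a higher summit there, at 11822833 and 3886 bp past the end of CycA, with a signal of 56.8 but a −log10 IDR of 0.94, below the limit. It had 42.9 in replicate 2 and no ranked summit of replicate 1 within 100 bp. The conservative summit with 50 bp on either side, at chr3L:11822001-11822101 on the plus strand, is shown for the repeated GAGAG, the sequence read by GAGA factor, which is in capitals on both strands.
CycA downstream: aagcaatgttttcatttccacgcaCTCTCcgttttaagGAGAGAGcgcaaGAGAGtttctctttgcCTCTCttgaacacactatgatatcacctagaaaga

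The Cdc25 gene stg, which sets the time of mitosis, had the densest peaks of the 9. Its region (FBgn0003525, 3R, 29251826 to 29255800, minus strand) held 5 conservative summits in 14.0 kb, or 3.58 per 10 kb, a density reached by 1.198% of protein-coding genes. Of these, 3 lay within 1000 bp of a stg start site. The highest, at 29256344, had 121 (55.9 in replicate 1 and 69.5 in replicate 2) and lay 544 bp upstream, but closer to the divergent gene CG45544, 141 bp upstream of its start. An intronic summit at 29254514, 811 bp downstream of the start site, had 97.6, with 55.0 in replicate 1 and 51.8 in replicate 2. The conservative summit nearest to the start site was the weakest of the 5: at 29255829, 29 bp upstream, it had 44.9, with 30.8 in replicate 1 and 33.6 in replicate 2, and it was in neither thresholded list.

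The other 2 summits near stg lie at its neighbours. At 29250670, 1156 bp past the end of stg and 219 bp upstream of SP1029, an aminopeptidase-like gene, the signal was 104, with 41.5 in replicate 1 and 63.8 in replicate 2. At 29256998, inside CG45544, it was 66.2, with 38.2 in replicate 1 and 35.6 in replicate 2. The stg region thus had peaks at the start regions of stg, CG45544 and SP1029, and whether any of them acts on stg cannot be read from the peaks.

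The window at the 5′-most stg start site is the only one of the 22 with a match to one of 4 E2F sequences searched (TTTCCCGC, TTTGGCGC, TTTCGCGC and TTTGGCGG). The match, TTTGGCGC, lies between 13 and 6 bp upstream of that start site, and 0.635% of all conservative windows hold that sequence. TTTCCCGC was in 0.443% of all conservative windows, TTTCGCGC in 0.413% and TTTGGCGG in 0.295%. With 4 sequences searched in 22 windows, a single match is only a description. In the same window TATAAA lies between 26 and 21 bp upstream and TCAGT begins 4 bp upstream and ends at the start site. The window at the highest stg peak holds CACGTG, the E-box read by Myc with Max, found in 1.03% of all conservative windows. Both are shown on the plus strand, opposite to stg, at chr3R:29255779-29255879 and chr3R:29256294-29256394, with all matches in capitals.
stg start site: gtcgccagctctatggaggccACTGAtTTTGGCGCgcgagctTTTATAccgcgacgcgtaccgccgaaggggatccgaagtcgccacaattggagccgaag
stg upstream: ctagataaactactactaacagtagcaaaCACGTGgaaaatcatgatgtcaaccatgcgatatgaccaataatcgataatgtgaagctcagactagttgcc

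The highest peak of the 9 regions lay beside fzr, the activator of the anaphase-promoting complex, and not at its promoter. The gene (FBgn0262699, X, 4667290 to 4679537, minus strand) has 2 start sites, and the conservative summit nearest to them lay 7311 and 5307 bp away, outside the region. The summit at 4667003 lay 287 bp past the end of fzr and 303 bp upstream of the start site of CG3009, which is the nearest of any gene. Its signal of 332 is higher than 95.9% of conservative peaks, with 164 in replicate 1 and 146 in replicate 2. It was in the thresholded lists of both. The other 19 ranked summits in the region had 50.2 or less. The summit with 50 bp on either side, chrX:4666953-4667053 on the plus strand, is shown as the strongest peak, with CAGCTG, another E-box, in capitals. CAGCTG was in 1 of the 22 windows, and 3.81% of all conservative windows hold it.
fzr downstream: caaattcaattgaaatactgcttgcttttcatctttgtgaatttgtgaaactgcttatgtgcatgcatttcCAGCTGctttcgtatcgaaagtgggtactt

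The conservative list keeps peaks whose ranks repeat between the replicates, so likeness of signal is in part built into the 22 peaks. In 21 of them each replicate's ranked list had a summit within 100 bp. The ratio of replicate 2 to replicate 1 ran between 0.890 and 2.23, with a median of 1.07, beside a median of 1.19 over the 5991 conservative peaks with both values (quartiles 0.973 and 1.48). Replicate 2 was the higher one in 13 of the 21, against 72.1% of all. In the shorter thresholded lists 8 of the 22 had a summit of both replicates, 10 of replicate 2 alone, 1 of replicate 1 alone and 3 of neither. The corresponding shares of all conservative peaks were 45.0%, 20.3%, 8.60% and 26.02%. The 8 were 3 summits of E2f1, 2 of CycB, 2 of stg and the 1 of fzr.

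**Figure D4:**
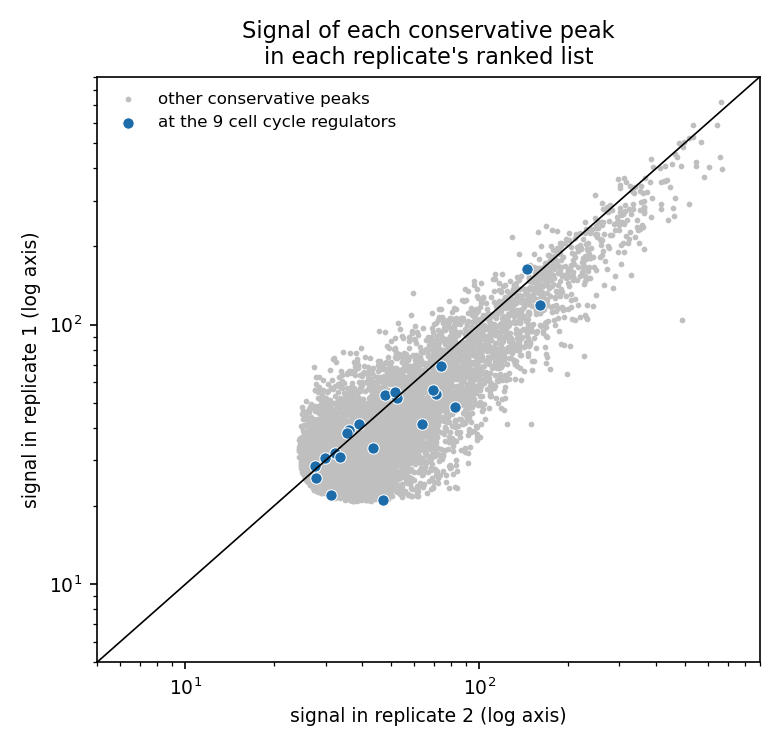
The signal of each conservative peak in the ranked list of replicate 2 (horizontal) and of replicate 1 (vertical), on log axes, for peaks with a summit of both within 100 bp. Blue points are the 21 peaks at the cell cycle regulators, grey points all others, and the line marks equal signal. The blue points lie within the grey cloud, with fzr and CycB highest.

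The 22 summits shared few sequence features. The GC content of these windows, the summit with 50 bp on either side, averaged 41.2% ± 11.3 (SD, n = 22 summits), beside 38.3% ± 11.6 over all 6776, and ran between 20.8% and 60.4%. The lowest was the E2f1 intron summit at 21627934 and the highest the stg start site. GAGAG was in 5 of the 22 windows (19.6% of all windows hold it), TATAAA in 4 (16.8%), TCAGT in 6 (17.4%), AAAAAA in 5 (32.1%) and CACACA in 4 (9.95%). CATATG was in 2, both of E2f1 (3.31%). By place, 10 summits lay in introns, 1 in a 5′ UTR exon, 6 upstream and 5 downstream of the gene, and 0 in coding sequence. Of the 22, 11 lay within 1000 bp of some protein-coding start site, beside 50.5% of all conservative summits, and 5 of these were start sites of the regulators.

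CAACAGGTG, a site bound by Scratch proteins, was in 0 of the 22 windows, and 0.871% of all windows hold it. Its shorter core CACCTG, which CAACAGGTG contains on the other strand, was also in 0 of the 22 (3.28% of all), and in 1 of the 28 with the ranked list added, the E2f1 summit in InR at 21616392. The 9 regions hold 4 copies of CAACAGGTG: 2 around E2f1, 1 in an intron of CycE and 1 in an intron of fzr. The nearest of the ranked summits to any of these 4 lay 429 bp away, in fzr, with a signal of 10.9. Over the main arms 63 of 1381 copies (4.56%) lay within 50 bp of a conservative summit. None of TATCGATA, GGTCACACT and AGGTCA was in the 22 windows, and these were in 0.546%, 0.428% and 1.48% of all.

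The wider cell cycle machinery gave 89 other genes in 9 lists. Of these, 53 (59.6%) had a conservative summit in the gene or within 5 kb, beside 49.8% of all protein-coding genes, and 22 (24.7%) had one within 1000 bp of a start site, beside 23.1%. The partners of E2f1 and Rbf included the most heavily marked promoter by number. Dp, the dimer partner of E2f1, had 4 conservative summits, all within 1000 bp of a start site, the highest with a signal of 207 at 117 bp. In that list of E2F partners and the dREAM complex 6 of 9 genes had a summit and 3 had one near a start site. One of the 3 was lin-52 with 204, at a summit closer to CG15771.

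Among cyclin-dependent kinases and Cks proteins 4 of 10 had a summit and 3 near a start site, with Cdk4, the partner of CycD, at 115 and Cks85A at 89.6, while Cdk2, the partner of CycE, had 0. The other cyclins had 5 of 8 and 1 near a start site, CycH at 67.4. In the list of the Cdc25 family and inhibitory kinases, Wee1 and Myt1, kinases that inhibit Cdk1, had 0. The Cdc25 gene of the germ line, twe, had a summit of 168 that lay 3863 bp from its start site and 104 bp from that of EndoGI. Ubiquitin ligase genes, which include the partners of fzr, had 11 of 14 with a summit and 4 near a start site. These included SkpA at 366, where Hmt4-20 is nearer, and Cdc16 at 206.

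Of 21 replication licensing and S phase genes, many of them known targets of E2f1, 10 had a summit within 5 kb but 1 had one within 1000 bp of a start site, RnrS at 78.9. Mitotic kinases and spindle checkpoint genes had 5 of 9 and 1 near a start site, aurB at 56.0, where Stam is nearer. Among DNA damage checkpoint genes the numbers were 5 of 7 and 3, with mei-41 at 140 and grp at 105. Growth and tissue regulators that act on the cycle had 6 of 8 and 6 near a start site, among them wts at 120. Lists of this size are described by their counts, and no list was tested.

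**Figure D5:**
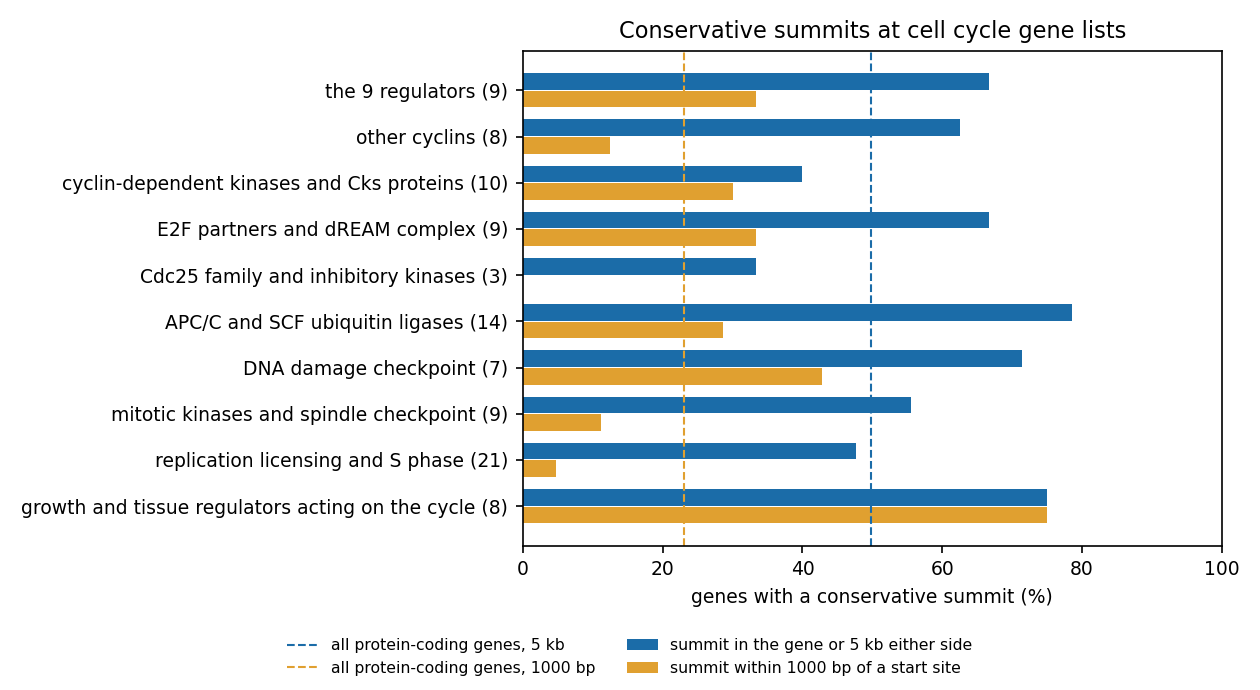
Share of genes with a conservative summit in the gene or 5 kb either side (blue) and within 1000 bp of a start site (yellow), for the 9 regulators and 9 lists of other cell cycle genes, with the number of genes in brackets. Dashed lines give the shares of all protein-coding genes, 49.8% and 23.1%. Replication genes have the shortest yellow bar among lists that have one, and growth regulators the longest.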

How the data were processed

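Peak lists on dm6 were analysed from 2 biological replicates of anti-GFP chromatin immunoprecipitation from whole pupae. Per the text deposited with the samples, the peak lists derive from the replicates' dm6 alignments and a file from which the over-control tracks also derive; the thresholded lists derive from a further file, whose role that text does not state. Lists are named for the irreproducible discovery rate (IDR). The sources used here name no aligner or peak caller. Each peak carries a signal deposited by the authors, the summit offset and, in ranked lists, the −log10 of the IDR as deposited by the authors. The ranked list that holds all 6776 conservative peaks was taken as the comparison between replicates, and 8 columns of unnamed pair members in each series-level ranked list were not used. The sources give no reason why 180 peaks that meet the limit are missing from the conservative list. Control data were not analysed here.

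Summits were placed on the Ensembl 115 annotation and the Release 6 assembly, on which no conservative peak ends beyond its arm, with positions counted from 1. Summits of separate lists were matched within 100 bp. Analyses used Python 3.11.15, pandas 2.3.3 and numpy 2.4.6, and counting was tested on simulated summits. The members and lists were chosen with earlier results of these data known, and 1 entry, bantam, matched no protein-coding gene. Besides the 9 regulators the text names, in each list, at most 2 genes, those of highest conservative signal within 1000 bp of a start site (otherwise within 5 kb), and genes whose start is nearest to a summit. A gene that this rule names is not reported here. Further genes (Cdk2, Wee1, Myt1) and the second E2f1 sequence were chosen after values were seen. The closing section gives the alternatives.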

Additional observations from a re-analysis of the deposited data

How the results depend on the processing

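The counts at the 9 regulators and the 89 other cell cycle genes were recomputed 37 times, with 1 choice changed each time, and 29 of these values stayed within 1.5 times the value reported. The 22 conservative summits became 11 in gene bodies alone and 10 among peaks at or above the median signal, and the 6 genes with a summit became 3 in gene bodies alone. The 3 genes with a summit near a start site became 1 among peaks at or above the median signal. The 28 reproducible summits became 16 at a −log10 IDR of 3 or more, and the 8 summits seen in both replicates became 21 in the longer ranked lists. Leaving out a replicate gave between 10 and 20 summits, between 4 and 6 genes with one, between 1 and 3 near a start site, and between 43 and 51 of the 89 other genes instead of 53. The lists of single replicates also hold summits that are not conservative, and the cause of their lower counts was not tested. No paired analysis was possible because there is 1 group. Depth is unknown, so weak peaks below the limit, such as those of CycE and Rbf, cannot be read as absence of binding.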
